A study of Homo sapiens with 6 samples.

Results

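Liver X receptors (LXRs) and the genes they control were followed in MM.1S, a human multiple myeloma (plasma cell cancer) line, after knockdown of KDM6B. The set held 10 genes of 56637 listed: the receptors NR1H2, NR1H3 and RXRA, the sterol exporters ABCA1 and ABCG1, the ubiquitin ligase MYLIP, and the lipid synthesis genes SREBF1, SCD, FASN and LPCAT3. They were picked by symbol for their place in the pathway, with the values of shKDM6B against shLuc in these libraries already known. Their values in that comparison are therefore a description, and no p-value is given for them. All 10 had enough counts to enter the fit across genes.

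The shKDM6B group was MM.1S cells carrying a short hairpin RNA (shRNA) against KDM6B, and the shLuc group was MM.1S cells carrying one against luciferase. KDM6B is a histone demethylase that erases the repressive H3K27 methyl mark. Both groups had 3 RNA-seq libraries, and both had been through lentiviral transduction and puromycin selection, per the labels' protocols. The labels name 1 hairpin target per group and leave unstated whether replicates were separate cultures, so each p-value reflects only how these libraries vary. That spread may be technical, and effects of KDM6B loss and of the hairpin sequences cannot be told apart.

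LXRs are nuclear receptors that sense oxysterols and other sterol ligands. They bind DNA as partners of a retinoid X receptor (RXR), at direct repeats of AGGTCA called DR4 elements, and recruit co-repressors without ligand and co-activators with it. They are best known in macrophages, liver and intestine, where they raise sterol export, limit sterol uptake and drive fatty acid synthesis, in part through SREBF1.

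The promoter of ABCA1 is shown because that gene had the clearest difference between the groups. MYLIP, a target gene with overlapping groups, and SCD, the 1 member that was lower, are shown beside it. These promoters were picked by the genes' values in this comparison, so their motifs are a description and no test of LXR control. Each window runs from 250 bases before to 50 bases after the RefSeq start site on GRCh38.p14, 5′ to 3′ on the gene's strand. These coordinates were not used with the counts, which the submitters' processing notes place on GRCh37. Capitals mark an inexact match to DR4 in ABCA1 and matches to CCAAT, the letters of the box that the factor NF-Y binds, in MYLIP and SCD. Matches on either strand are marked.
ABCA1, chr9:104928106-104928405, minus strand: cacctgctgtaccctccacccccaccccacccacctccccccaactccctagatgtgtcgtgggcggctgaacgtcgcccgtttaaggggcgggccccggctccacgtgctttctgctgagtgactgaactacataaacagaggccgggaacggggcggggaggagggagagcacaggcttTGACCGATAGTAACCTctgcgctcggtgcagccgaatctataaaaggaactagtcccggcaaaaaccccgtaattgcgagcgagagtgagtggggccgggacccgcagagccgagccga
MYLIP, chr6:16128836-16129135, plus strand: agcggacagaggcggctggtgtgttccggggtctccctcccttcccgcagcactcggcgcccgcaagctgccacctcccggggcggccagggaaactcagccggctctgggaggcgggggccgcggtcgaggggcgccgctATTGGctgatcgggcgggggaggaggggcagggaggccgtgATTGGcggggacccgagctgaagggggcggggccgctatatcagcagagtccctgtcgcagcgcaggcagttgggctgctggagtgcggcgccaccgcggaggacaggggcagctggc
SCD, chr10:100346983-100347282, plus strand: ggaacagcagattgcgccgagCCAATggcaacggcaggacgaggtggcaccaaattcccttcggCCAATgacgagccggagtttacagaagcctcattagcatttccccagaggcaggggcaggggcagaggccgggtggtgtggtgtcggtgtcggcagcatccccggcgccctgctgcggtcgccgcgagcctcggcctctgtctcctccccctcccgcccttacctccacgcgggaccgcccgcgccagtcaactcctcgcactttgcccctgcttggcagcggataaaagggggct
The DR4 search used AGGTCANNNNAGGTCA on both strands with up to 2 mismatched letters. It found 1 match in the 12 windows of the 8 members in the RefSeq table, at position -69 of ABCA1 on the strand opposite the gene, reading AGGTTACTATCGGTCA with 2 mismatches. ABCG1 and FASN had no window there, so their promoters were not searched for any motif. Of all 35116 windows, 2.34% held such a match. CCAAT, searched on both strands, was in 34.6% of all windows. It lay at -109 and -68 in MYLIP, at -229 and -186 in SCD, at 3 places in LPCAT3, and at -28 in 1 window of NR1H3. The sterol regulatory element TCACNCCAC, on both strands, had no match in the members' windows, against 1.13% of all windows. ABCA1 also held the E-box CACGTG at -147, a motif in 7.26% of windows. NR1H2, RXRA and LPCAT3, which were also higher in shKDM6B, had windows without a DR4 match. Sequence outside the windows was not searched. A match is a run of letters and was not tested as a site.

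KDM6B itself stood at 30.4, 32.3 and 35.1 CPM (counts scaled by library total and TMM factor) in shKDM6B replicates 1 to 3, against 56.2, 57.0 and 48.2 CPM in shLuc replicates 1 to 3. Its log2 fold change was -0.71 (SE 0.073, adjusted p = 7.72e-08, edgeR's quasi-likelihood test with Benjamini-Hochberg adjustment over 13839 genes). Library totals ran from 7952156 to 9848351 counts in shKDM6B and from 7338393 to 8996159 in shLuc. The plasma cell markers SDC1, CD38, TNFRSF17, IRF4, PRDM1 and XBP1 summed to 1854 to 2085 CPM in shKDM6B and 1933 to 2096 CPM in shLuc. Of the 6, 3 were past the threshold of an adjusted p under 0.05, as were 39.1% of all tested genes. CD38 (log2 fold change -0.45) and TNFRSF17 (-0.37) were lower and PRDM1 (0.15) was higher. The 8 monocyte and macrophage markers summed to 3.06 to 5.50 CPM in shKDM6B and 4.39 to 6.10 CPM in shLuc, with CD163 and MARCO at 0 in every library. Of these, MSR1 was called lower. The 5 adipocyte markers stayed at or under 0.549 CPM and the 5 hepatocyte markers at or under 0.505 CPM in sum. Keratin and epithelial markers set libraries apart. The 10 markers summed to 37.4, 49.6 and 2.12 CPM in shKDM6B replicates 1 to 3 and 13.7, 3.16 and 3.64 CPM in shLuc replicates 1 to 3. Among them KRT5, KRT13, KRT14 and KRT19 were called higher, though their groups overlapped. Results without the 3 libraries highest in these markers are given beside the members. T cell markers summed to 4.78 to 6.36 CPM in shKDM6B and 7.69 to 9.94 CPM in shLuc, and CD3E was called lower. Fibroblast markers summed to 0.404 to 3.47 CPM in shKDM6B and 0.220 to 0.961 CPM in shLuc. The part of these markers in the members' values was not tested, apart from the fits without those libraries.

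Across the pathway, the exporters showed the widest separation, the receptors and the lipid synthesis genes smaller ones. A gene counts as called where its adjusted p in the fit across genes is under 0.05. Of the 10 members, 6 were called higher in shKDM6B (NR1H2, RXRA, ABCA1, ABCG1, FASN and LPCAT3), against 20.1% of all genes tested, and 1 was called lower (SCD), against 18.9%. NR1H3, MYLIP and SREBF1 were not called. The 3 shKDM6B values lay above all 3 shLuc values for 7 members, as for 24.5% of tested genes, and below them for 1, as for 23.9%, so that 8 did not overlap, against 48.4% of tested genes. The median log2 fold change of the members was 0.20, and that of all tested genes was -0.0053. In bulk RNA, fewer cells expressing a gene and less RNA per cell cannot be told apart.

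**Figure D1:**
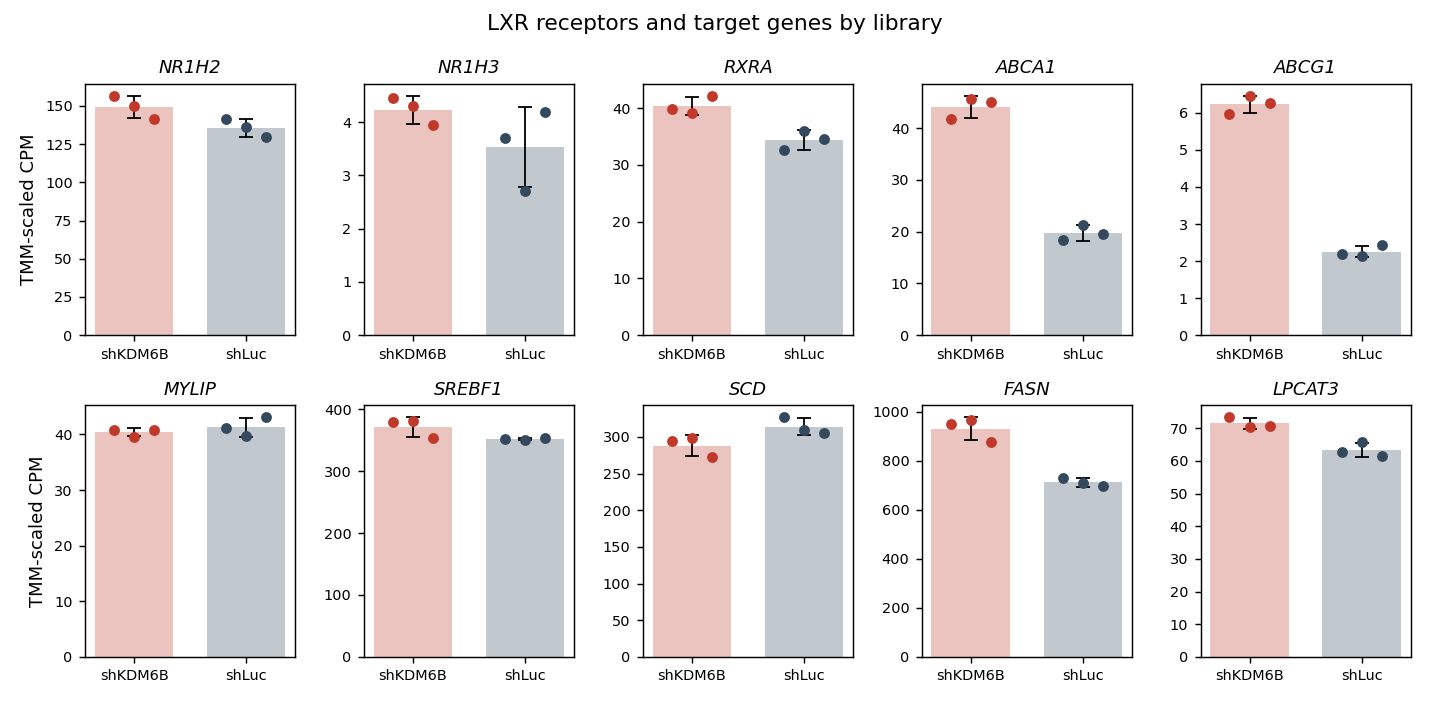
Bars give the mean TMM-scaled CPM of 3 libraries, error bars the SD and points the single libraries of shKDM6B (red, left) and shLuc (dark blue-grey, right) for each of the 10 genes, on separate linear axes that start at 0. ABCA1 and ABCG1 stand more than 2-fold apart, while the groups of MYLIP and NR1H3 overlap.

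The sterol exporters come first because their differences were the widest. ABCA1 passes cholesterol and phospholipid from the cell membrane to lipid-poor apolipoprotein A-I. It had 328, 382 and 447 raw counts in shKDM6B replicates 1 to 3, against 134, 189 and 177 in shLuc replicates 1 to 3. Every shKDM6B library was above every shLuc library, and the ranges lay far apart. The means were 44.2 ± 2.1 CPM in shKDM6B and 19.8 ± 1.5 CPM in shLuc (SD, n = 3 each), a 2.23-fold difference (log2 fold change 1.16, SE 0.076). ABCG1 moves sterol out of the cell towards mature high-density lipoprotein. It was a low-count gene, with 47, 54 and 62 raw counts in shKDM6B and 16, 19 and 22 in shLuc. The groups again did not overlap, at 6.23 ± 0.24 CPM in shKDM6B and 2.26 ± 0.15 CPM in shLuc (SD, n = 3 each). That is a 2.75-fold difference (log2 fold change 1.46, SE 0.20), with a wider SE than that of ABCA1. Among all tested genes, 0.715% had a larger log2 fold change than ABCA1 and 0.318% a larger one than ABCG1. Of the 13839, 147 (1.06%) were called higher with a log2 fold change of at least 1, these 2 among them.

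The exporters kept their size under every alternative run. Over 15 alternatives the log2 fold change ran from 1.11 to 1.22 for ABCA1 and from 1.42 to 1.51 for ABCG1, and both were called in all 15. Without the 3 libraries with the most keratin counts the values were 1.15 and 1.45. That fit has 1 shKDM6B library, which is assumed to vary like the shLuc libraries.

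**Figure D2:**
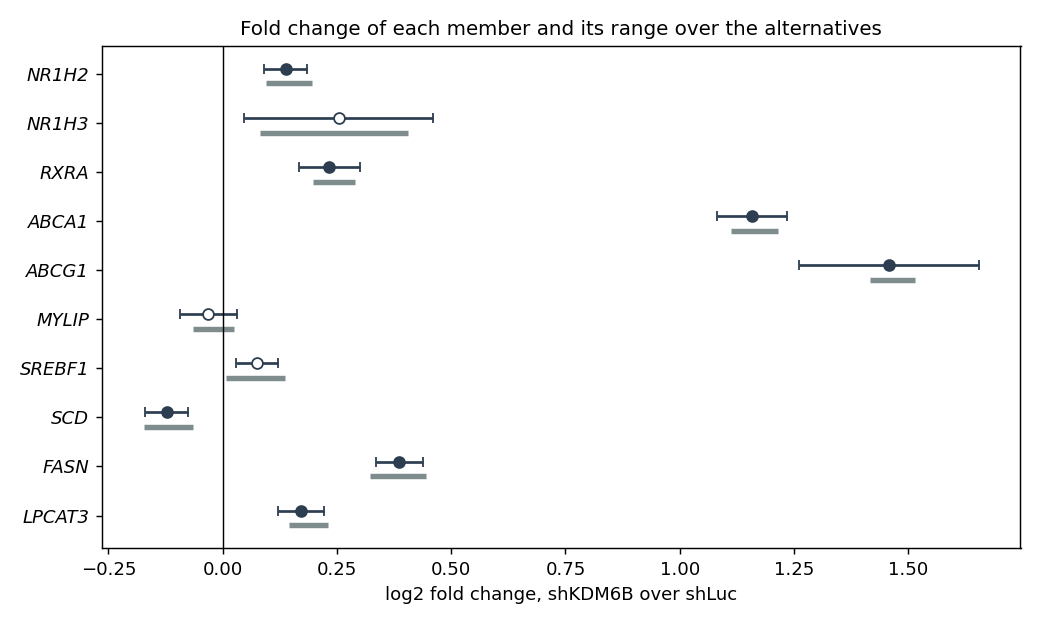
Points give the log2 fold change of shKDM6B over shLuc with its SE, filled where the gene was called, and grey bars the lowest to highest value over the 15 alternatives. The ranges of ABCA1 (1.11 to 1.22) and ABCG1 (1.42 to 1.51) stand clear of the other members, of which FASN reaches 0.45, and the range of MYLIP crosses 0.

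The receptors differed little. NR1H2 encodes LXRβ, the form found in most tissues. It had 156, 150.0 and 142 CPM in shKDM6B replicates 1 to 3, against 141, 136 and 130 CPM in shLuc replicates 1 to 3. The groups nearly touched, since shKDM6B replicate 3 was 141.7 CPM and shLuc replicate 1 was 141.4 CPM. The log2 fold change was 0.14 (SE 0.047). The call held in 9 of 15 alternatives. It was lost without shKDM6B replicate 1, shKDM6B replicate 2, shLuc replicate 2 or shLuc replicate 3, without the 3 keratin libraries (0.094) and by DESeq2 (0.14).

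NR1H3 encodes LXRα, the form known from liver, macrophages and fat, and itself an LXR target in human macrophages. Its raw counts were 35, 36 and 39 in shKDM6B and 27, 24 and 38 in shLuc. The highest shLuc library was within the shKDM6B range in CPM, so the groups overlapped. The means were 4.23 ± 0.27 CPM in shKDM6B and 3.54 ± 0.75 CPM in shLuc (SD, n = 3 each), with a log2 fold change of 0.25 (SE 0.21) that was not called. The value was 0.082 without shLuc replicate 2, 0.41 without shLuc replicate 3 and 0.19 without the 3 keratin libraries. At this depth a difference of that size could not be resolved. In the reference annotation 4.17% of its exon bases lie under exons of ACP2 on the other strand, and the library kit, as named, does not mark strand. RXRA encodes RXRα, an RXR that LXRs pair with. It stood at 39.8, 39.2 and 42.2 CPM in shKDM6B and 32.5, 36.0 and 34.5 CPM in shLuc, with no overlap. The log2 fold change was 0.23 (SE 0.066), called in 14 of 15 alternatives and not by DESeq2 (0.24). Without the 3 keratin libraries it was 0.26.

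Levels between genes are compared per kilobase of the longest annotated transcript. On that scale NR1H2 stood far above NR1H3. The ratio of LXRβ to LXRα transcript level was 40.3, 40.01 and 41.3 in shKDM6B replicates 1 to 3 and 43.8, 57.5 and 35.6 in shLuc replicates 1 to 3. The shKDM6B ratios lay within the shLuc range. RXRA reached 7.003 ± 0.274 CPM per kb in shKDM6B and 5.95 ± 0.30 CPM per kb in shLuc (SD, n = 3 each), above NR1H3 and below NR1H2 in both groups. RXRB, an RXR gene outside the set, stood higher than RXRA. It had 40.7 ± 1.3 CPM per kb in shKDM6B and 42.2 ± 1.5 CPM per kb in shLuc (SD, n = 3 each).

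The order of the 10 levels in shKDM6B was FASN, SREBF1, NR1H2, SCD, LPCAT3, MYLIP, RXRA, ABCA1, ABCG1 and NR1H3, with no overlap between neighbours. It ran from 109 ± 5 CPM per kb for FASN to 1.55 ± 0.10 CPM per kb for NR1H3. In shLuc the order was FASN, SREBF1, SCD, NR1H2, LPCAT3, MYLIP, RXRA, ABCA1, NR1H3 and ABCG1, from 83.0 ± 2.1 to 0.649 ± 0.043 CPM per kb (SD, n = 3 each). Here SCD and NR1H2 overlapped. ABCG1 was thus 9th of 10 in shKDM6B and 10th in shLuc. With the length of all annotated exons merged in place of the longest transcript, 6 of the 10 kept their rank in shLuc.

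**Figure D3:**
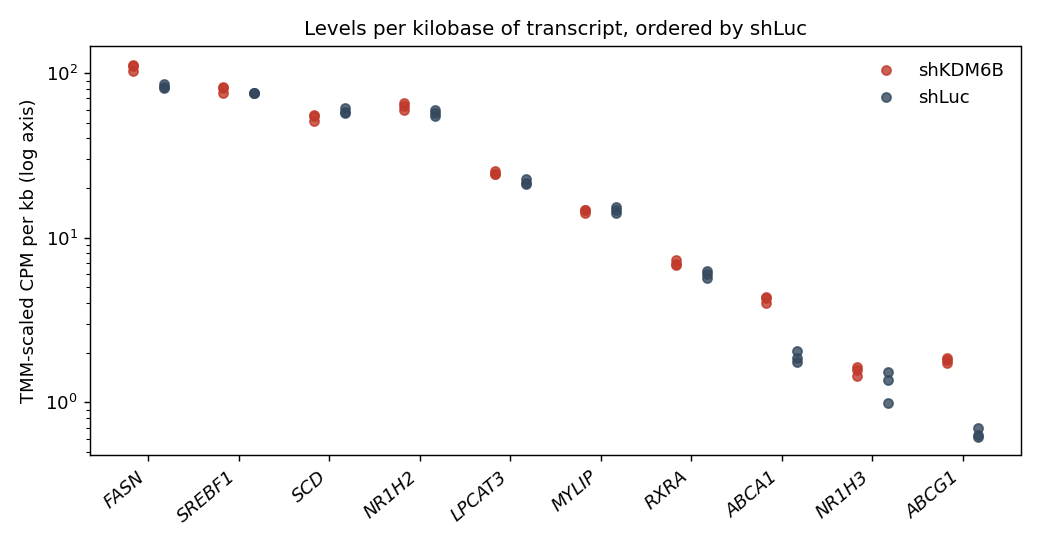
Each point is 1 library's level in TMM-scaled CPM per kilobase of the longest transcript, on a log axis, with shKDM6B in red to the left and shLuc in dark blue-grey to the right of each gene, ordered by the shLuc mean. FASN is at the top in both groups, and ABCA1 and ABCG1 are the genes whose groups lie farthest apart.

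MYLIP, also called IDOL, marks lipoprotein receptors for degradation and is induced by LXRs in many cell types. Its level was 40.9, 39.6 and 40.9 CPM in shKDM6B replicates 1 to 3 and 41.2, 39.6 and 43.1 CPM in shLuc replicates 1 to 3. The groups overlapped almost fully, with a log2 fold change of -0.031 (SE 0.062) that was not called in any alternative. It was -0.016 without the 3 keratin libraries. Its sign turned to 0.026 with scaling on sparsely covered genes, those under 0.03 counts per base.

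Of the receptors that MYLIP is known to degrade, LRP8 (the apolipoprotein E receptor ApoER2) was higher. It had 194, 199.8 and 186 CPM in shKDM6B and 144, 151 and 152 CPM in shLuc (log2 fold change 0.37, SE 0.044, edgeR adjusted p = 4.99e-07). VLDLR had a log2 fold change of 0.15 (SE 0.11, edgeR adjusted p = 0.299).

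Among the lipid synthesis genes, FASN was higher, SREBF1 was not called and SCD was slightly lower. SREBF1 encodes SREBP-1, the transcription factor that LXRs induce and that switches on fatty acid synthesis. It had 379, 382 and 353 CPM in shKDM6B replicates 1 to 3 and 353, 350.3 and 353 CPM in shLuc replicates 1 to 3. shKDM6B replicate 3 lay within 3 CPM of every shLuc library, and the log2 fold change of 0.076 (SE 0.046) was not called. Gene counts do not separate the SREBP-1a and SREBP-1c forms, which start at different promoters, and without the 3 keratin libraries the log2 fold change was 0.0072. In the annotation 6.92% of its exon bases lie under RAI1 exons on the other strand.

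FASN, fatty acid synthase, makes palmitate. It had 948, 964 and 876 CPM in shKDM6B, against 730.3, 708 and 695 CPM in shLuc. Every shKDM6B library was above every shLuc library. The log2 fold change was 0.39 (SE 0.051), a 1.31-fold difference called in all 15 alternatives, from 0.32 (without the 3 keratin libraries) to 0.45. SCD introduces a double bond into stearate and palmitate. It had 294, 298 and 272 CPM in shKDM6B and 327, 309 and 305 CPM in shLuc, so the groups lay apart in the other direction. The difference was small (log2 fold change -0.12, SE 0.048), and the call rests on the setting: it held in 7 of 15 alternatives. It was lost without shKDM6B replicate 1, 2 or 3 or shLuc replicate 1 or 2, by DESeq2, with the filter of 1 CPM in 3 libraries, and with scaling on sparsely covered genes (-0.064). Without the 3 keratin libraries it was called, at -0.17. The processed pseudogene SCDP1 had at most 4 counts in any library.

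FASN, SREBF1, NR1H2 and SCD were the members densest in reads, with 0.819, 0.664, 0.511 and 0.479 counts per base of transcript, against 0.0263 for ABCA1 and 0.0106 for ABCG1. Between replicates 1 and 3 the total grew 1.24-fold in shKDM6B and 1.23-fold in shLuc. FASN counts grew 1.17-fold in shKDM6B and 1.19-fold in shLuc, SCD counts 1.17-fold and 1.16-fold, and NR1H2 counts 1.14-fold and 1.15-fold, all less than the totals. SREBF1 counts grew less than the total in shKDM6B (1.17-fold) and more in shLuc (1.25-fold). ABCA1 counts grew 1.36-fold in shKDM6B and 1.32-fold in shLuc. The part of this in the members' fold changes was not tested. Scaling on the 2723 sparsely covered genes moved the median log2 fold change of all genes by 0.057 and the members by about as much, and 64.2% of its calls were higher, against 51.5%.

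LPCAT3 puts polyunsaturated fatty acids into membrane phospholipids and is an LXR target in mouse and human cells. It had 73.3, 70.4 and 70.7 CPM in shKDM6B replicates 1 to 3 and 62.6, 65.8 and 61.6 CPM in shLuc replicates 1 to 3, with no overlap. The log2 fold change was 0.17 (SE 0.050), called in 13 of 15 alternatives but not by DESeq2 (0.17) or without the 3 keratin libraries (0.15). LPCAT3 shares 65.6% of its annotated exon bases with EMG1, a ribosome biogenesis gene on the other strand. EMG1 had a log2 fold change of 0.15 (SE 0.050, edgeR adjusted p = 0.0225), and the ratio of LPCAT3 to EMG1 counts was 1.07, 1.01 and 1.05 in shKDM6B and 1.04, 1.04 and 0.995 in shLuc. Without strand, reads of the 2 genes cannot be told apart there.

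Around the members, 7 lists of other pathway genes held 93 genes, of which 64 were tested. Of these, 19 were called higher and 8 lower, 42.2% of those tested against 39.1% of all tested genes. The 64 listed genes, which leave out the members, were thus called about as often as all tested genes. For the counts of each list below, the shares over all tested genes are 20.1% called higher and 18.9% called lower. No list was tested against these shares, and the lists were chosen with earlier results of these data known.

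Among 13 tested partners and co-regulators, 4 rose, 2 fell and 7 did not pass, with a median log2 fold change of -0.024. The co-activator NCOA1 rose to 72.1 ± 3.6 CPM in shKDM6B, against 55.0 ± 4.4 CPM in shLuc (SD, n = 3 each; edgeR adjusted p = 1.60e-05). The co-activator NCOA3 (log2 fold change 0.22) and the deacetylase SIRT1 (0.29) were also higher. Within the co-repressor complex, TBL1X (-0.26) and GPS2 (-0.37) were lower. NCOR1 stood at 204 ± 14 CPM in shKDM6B and 206 ± 8 CPM in shLuc (SD, n = 3 each; edgeR adjusted p = 0.859). RXRB, another RXR gene, averaged 118.3 ± 3.7 CPM in shKDM6B and 122.8 ± 4.3 CPM in shLuc (SD, n = 3 each; edgeR adjusted p = 0.387), and RXRG had at most 1 count per library.

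Other nuclear receptors that pair with RXR were split. Of 10 tested, 4 rose, 1 fell and 5 did not pass (median log2 fold change 0.0053). The vitamin D receptor VDR had 226, 222 and 224 CPM in shKDM6B and 143, 144 and 133 CPM in shLuc (log2 fold change 0.68, SE 0.044, edgeR adjusted p = 6.50e-11). PPARA, the fatty acid sensor of the liver, had 58.9, 64.9 and 67.5 CPM in shKDM6B and 37.4, 41.7 and 45.6 CPM in shLuc (log2 fold change 0.61, SE 0.068, edgeR adjusted p = 2.18e-07). The retinoic acid receptors RARG (0.35) and RARA (0.17) were higher, RARA not without shLuc replicate 3 (edgeR adjusted p = 0.109). The immediate-early receptor NR4A1 was lower (-0.39), though not by DESeq2 (adjusted p = 0.0959).

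Of 9 enzymes that make or remove LXR ligands, 3 were tested and 0 passed. Among them LSS and EBP, which act in late cholesterol synthesis, had log2 fold changes of 0.058 and -0.093 (edgeR adjusted p = 0.389 and 0.144). None of the 3 had an unadjusted p under 0.05, and 0 passed by DESeq2. The oxysterol-making enzymes CH25H, CYP27A1 and CYP46A1 had at most 8 counts in any library, so a difference in them was not detectable at this depth.

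Other sterol and lipoprotein targets were largely silent: 13 of 19 were not tested, with at most 8 counts per library, among them APOE, LPL, CETP and the exporter ABCG4. Of the 6 tested, 2 rose, 2 fell and 2 did not pass (median log2 fold change -0.048). NPC1, which moves cholesterol out of lysosomes, fell to 50.8, 53.5 and 57.3 CPM in shKDM6B replicates 1 to 3, against 91.0, 89.1 and 93.8 CPM in shLuc replicates 1 to 3. The groups lay far apart (log2 fold change -0.76, SE 0.052, edgeR adjusted p = 1.80e-10). Its partner NPC2 was lower by less (-0.20, edgeR adjusted p = 0.0197). The phosphodiesterase SMPDL3A (0.45, edgeR adjusted p = 0.0175) and the phagocytic receptor MERTK (0.21, edgeR adjusted p = 0.0315) were higher. DESeq2 called neither of these nor NPC2 (adjusted p = 0.0920, 0.235 and 0.196). NPC2 also missed the threshold without shKDM6B replicate 2 or shLuc replicate 2, SMPDL3A without shKDM6B replicate 3 or shLuc replicate 1, and MERTK without any of the shKDM6B libraries or without shLuc replicate 2 or 3, with upper-quartile scaling or with no filter on low counts. NPC2 missed it with scaling on sparsely covered genes too. All 3 missed it without the 3 keratin libraries.

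The SREBP processing genes mostly missed the threshold. With the receptors above, 1 of 9 tested rose (LRP8), 1 fell and 7 did not pass (median log2 fold change -0.025). INSIG1, which holds SREBPs in the endoplasmic reticulum, was the lower one, at 249, 258 and 226 CPM in shKDM6B and 315, 288.5 and 307 CPM in shLuc (log2 fold change -0.31, SE 0.051, edgeR adjusted p = 3.80e-05). SREBF2, the SREBP of cholesterol synthesis, averaged 539 ± 21 CPM in shKDM6B and 548 ± 30 CPM in shLuc (SD, n = 3 each; edgeR adjusted p = 0.738).

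Of 15 other fatty acid genes tested, 6 rose, 1 fell and 8 did not pass, beside 20.1% of all tested genes called higher and 18.9% called lower. The difference was not tested. The list had a median log2 fold change of 0.10 beside -0.0053 for all tested genes. The desaturases FADS1, FADS2 and SCD5 were among those that rose. FADS1 had 94.3, 101 and 94.5 CPM in shKDM6B and 66.1, 75.2 and 75.5 CPM in shLuc (log2 fold change 0.41, SE 0.053, edgeR adjusted p = 1.88e-06). FADS2 was at low counts, 55, 41 and 43 in shKDM6B and 18, 19 and 24 in shLuc (log2 fold change 1.14, SE 0.23, edgeR adjusted p = 0.000392). SCD5, the second stearoyl-CoA desaturase gene, was higher (0.25, edgeR adjusted p = 0.000406), whereas SCD was slightly lower. The triglyceride synthesis genes LPIN1 (0.26) and DGAT2 (0.34) rose as well. ACLY and ACACA, which supply acetyl-CoA and malonyl-CoA to FASN, had log2 fold changes of 0.11 and -0.035 (edgeR adjusted p = 0.0730 and 0.569).

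The other lysophospholipid acyltransferases rose in 2 of 8 tested, fell in 1 and did not pass in 5 (median log2 fold change 0.056). MBOAT1 fell to 53.7, 62.5 and 63.6 CPM in shKDM6B, against 83.6, 78.9 and 84.8 CPM in shLuc (edgeR adjusted p = 1.69e-06). LPGAT1 (0.35) and MBOAT7 (0.18) rose, MBOAT7 not without the 3 keratin libraries (edgeR adjusted p = 0.350).

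**Figure D4:**
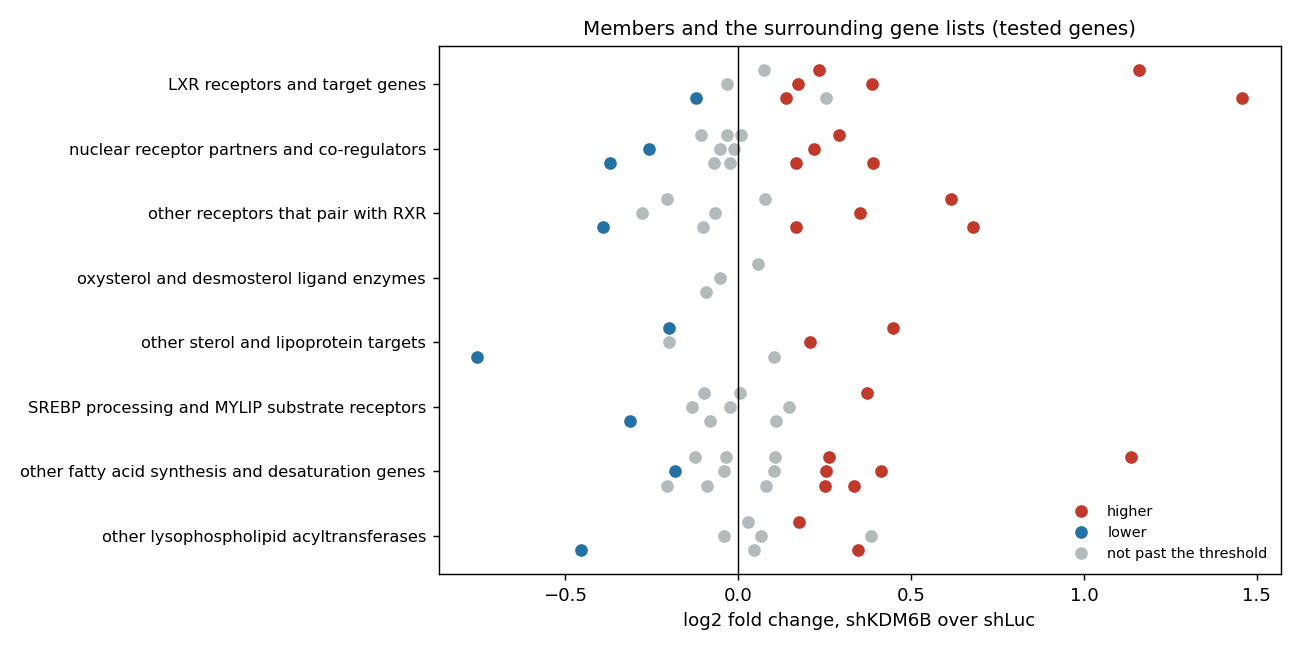
Each point is the log2 fold change of shKDM6B over shLuc of 1 tested gene, in rows for the 10 members and the 7 lists, coloured by whether edgeR called it higher, lower or neither. ABCA1 (1.16) and ABCG1 (1.46) lie at the right edge, with FADS2 (1.14) the nearest gene of the lists, and NPC1 (-0.76) lies farthest left.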

How the data were processed

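RNA-seq counts of 3 shKDM6B and 3 shLuc libraries of MM.1S were used. The authors deposited raw counts per gene symbol, 1 table per library. The build GRCh37 (hg19) and the tools STAR, featureCounts and DESeq come from the submitters' processing notes. Their versions, the annotation and the strand setting are not given here. Of each table, 56637 symbols were kept while 1 line whose name had become a date and which held no count was dropped. The deposited table of normalized values was not used here.

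The quasi-likelihood test of edgeR 4.0.16 (R 4.3.3; filterByExpr, TMM scaling, glmQLFit, glmQLFTest, no covariates) was run with Benjamini-Hochberg adjustment over 13839 genes and a threshold of 0.05. Each SE is the log2 fold change divided by the root of the quasi-likelihood F. The fit was first tested on simulated data. Lengths and overlaps came from GENCODE 29 (GRCh38), and promoter windows from RefSeq (GRCh38.p14). Libraries of a group differed by more than counting noise and were counted singly.

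Named were the members, KDM6B, up to 5 called genes of each list with the smallest p, and further genes chosen by symbol, of which some are not reported here. EMG1, LSS, EBP, the markers and the genes with too few counts were picked with their values in view. The members and lists were chosen with earlier results of these data known.

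Alternatives were DESeq2 size factors, upper-quartile scaling and scaling on sparsely covered genes in edgeR, no low-count filter, a filter of 1 CPM in 3 libraries, DESeq2 1.42.0 with its Wald test, voom in limma 3.58.1, the replicate number as a block, each library left out, the 3 keratin libraries left out, and a threshold of 0.01. Merged exon length was added after the data were seen.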

Additional observations from a re-analysis of the deposited data

How the results depend on the processing

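Over 15 alternatives for each of the 10 members, 132 of 150 log2 fold changes kept their direction and their side of the threshold, 17 lost the call and 1 reversed (MYLIP, 0.026 with scaling on sparsely covered genes). The log2 fold change of KDM6B ran from -0.79 to -0.58. In all genes, 2783 were higher and 2622 lower; DESeq2 called 1831 higher and 1590 lower. DESeq2 called 3 members higher (ABCA1, ABCG1 and FASN), against 6, and 0 lower. The count of lower members was also 0, against 1, with scaling on sparsely covered genes, with the filter of 1 CPM, and at an adjusted p of 0.01. With 1 library left out, the count of lower members was 0 to 1, and that of higher members 5 to 6. At an adjusted p of 0.01, 5 members were higher. The log2 fold changes without the 3 keratin libraries, a fit with 1 shKDM6B library, are given beside each member. By DESeq2, lower receptors that pair with RXR numbered 0, higher sterol and lipoprotein targets 0 and lower ones 1; scaling on sparsely covered genes gave 1 lower sterol and lipoprotein target and 0 lower fatty acid genes. Directions of uncalled genes that turned were those of SREBF2 (0.033), ACACA (0.019), RXRB (0.0040) and NCOR1 (0.045) under that scaling, ACACA without the 3 keratin libraries (0.033), and SREBF2 and NCOR1 with 1 library left out, where values ran from -0.058 to 0.017 and from -0.062 to 0.035. The cause of these changes was not tested.

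The deviations of same-numbered libraries from their group means had correlations of 0.12, -0.077 and 0.15 for replicates 1 to 3. Those of differently numbered libraries ran from -0.18 to 0.066. Replicates 1 and 3 were over the limit of 0.1 set for pairing and replicate 2 was not. Whether the numbers pair the libraries is thus unsettled, and the main fit left them unpaired. With the replicate number as a block, 6 members were higher and 1 lower, the log2 fold changes of ABCA1 and ABCG1 were 1.16 and 1.46, and ACLY passed (adjusted p = 0.00655). That fit called 3166 of all genes higher and 3052 lower, against 2783 and 2622 without the block. With merged exon length, 6 of 10 members kept their rank in shLuc. Depth limits NR1H3 and ABCG1, at 24 to 39 and 16 to 62 counts.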
